A study of Mus musculus with 20 samples.

Results

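Bone marrow side population (SP) cells were compared with bone marrow main population (MP) cells on 5 expression arrays per group. These 10 arrays, taken by the sample titles, belong to a study of 20 arrays whose other 10 held SP and MP cells of skeletal muscle. According to the labels, all cells came from adult mice of the inbred strain C57BL/10SnJ, total RNA was used, and no mutant allele, treatment or time is named for either group. The labels give no dye concentration, gate, surface stain or lineage depletion for the sorts. Nothing in them says that the arrays of a group hold separate mice or separate sorts. The p-values below therefore measure only how far the arrays vary, and that variation may be technical. In the gene fits, except that of the marrow arrays alone, the muscle arrays also entered the estimate of the spread. Of 12422 probe sets other than controls, 10310 passed a filter on dim signals, and these carried 7295 named genes. Values below are normalised signals on a linear scale with a floor of 104.8 (the 25th percentile of all values), so that a gene at the floor had a signal of that size or less.

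The side population is a dye-efflux phenotype. Living cells are loaded with a DNA-binding Hoechst dye, and the few that export it through ABC transporters, mainly Abcg2 in mouse marrow, form a dim tail in a flow cytometer. In mouse marrow this tail is known to be rich in long-term repopulating blood stem cells, which divide rarely, whereas the main population holds the maturing granulocytes, monocytes, B cells and red cell precursors. Blood stem cells depend on transcription factors such as Meis1, Tal1 and Gata2 and on inhibitors of cyclin-dependent kinases, and they have been described as less reliant on mitochondrial respiration than the cells they give rise to.

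Arrays of a group resembled each other across probe sets (median Pearson r 0.946 among SP and 0.967 among MP arrays) more than arrays of different groups did (0.888). Principal component 1 of the 10 arrays, which separated the groups, carried 51.6% of the variance, and component 2 (13.5%) separated bone marrow SP 1 from the other arrays. Before normalization the array medians lay between 441 and 613 signal units in SP and between 319 and 401 in MP. For beta-actin, the 3' control probe sets exceeded the 5' ones by a log2 ratio of 2.07 ± 0.72 on SP and 0.98 ± 0.28 on MP arrays (SD, n = 5), a ratio that shortened RNA and the amplification of small inputs can both raise, which cannot be told apart here. An exact permutation test, two-sided, gave p = 0.00794 (0.0238 after adjustment over 3 tests). The GAPDH ratio was 3.72 ± 0.60 and 2.67 ± 0.72 (exact permutation p = 0.0397, adjusted p = 0.0595). The mean log2 signal of spiked-in controls was 10.29 ± 0.57 and 9.66 ± 0.21 (exact permutation p = 0.0714). The part of these control ratios in the gene results was not tested beyond the alternative fits that are named with them.

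In the limma fit with Benjamini-Hochberg adjustment, 3113 of 10310 probe sets (30.2%) had an adjusted p under 0.05, with 1583 (15.4%) higher and 1530 (14.8%) lower in SP. Of these, 776 (7.53%) were higher and 861 (8.35%) lower by 2-fold or more. The 5 SP values did not overlap the 5 MP values for 2075 probe sets (20.1%), with 9.98% of all probe sets higher and 10.1% lower in SP. With 1 probe set per gene, the brightest, 1206 of 7295 genes (16.5%) were higher and 1084 (14.9%) lower, and the median log2 difference of all genes was 0.03. The counts of each gene group below are to be read against these shares, and no list was tested as a whole. The direction of small changes depends on the scaling. Calls higher in SP made up 50.9% of all calls with quantile normalization, where the median log2 difference over all probe sets was 0.02. They made up 72.2% where the signals were left as deposited (median 0.31) and 32.9% where the arrays were scaled to one median (-0.08). Throughout, a log2 difference is SP minus MP with its standard error, and a gene is said to have risen or fallen only where its adjusted p is under 0.05. Some probe sets share probes with related transcripts or were designed under relaxed rules and can cross-hybridise, which holds for those used here for Blnk, Cat, Cdkn1b, Dck, E2f1, Fcer1g, Flt3, Gata1, Hif1a, Il1r2, Itgav, Itgb1, Kif22, Meis1, Mpo, Myb, Pfkp, Pkm, Prdx2, Tie1, Zap70 and Zfp36 and for the second set of Scd1.

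The pump that defines the sort and most of the genes that mark blood stem cells were higher in SP cells. Abcg2, the main Hoechst exporter of mouse marrow, had signals of 2159.9, 4419.5, 3357, 6705 and 5419.9 on the 5 SP arrays, against 818, 972, 968, 888 and 946 on the 5 MP arrays. Every SP value exceeded every MP value, a 4.48-fold difference (2.16 ± 0.25, adjusted p = 7.32e-07). Abcb1b, a second drug-efflux pump, had 222, 393, 215, 632 and 365 on SP and 105, 105, 165, 105 and 126 on MP arrays, again without overlap (2.83-fold, adjusted p = 0.000505). However, 3 of the MP values lay at the floor, and the call was lost with a floor at the 40th percentile (0.49, adjusted p = 0.17). Its close relative Abcb1a had 185, 141, 119, 105 and 729 on SP arrays against the floor on all 5 MP arrays and did not pass (0.85 ± 0.39, adjusted p = 0.108). It passed in 3 of 24 alternatives, at 2.49 with a floor at the 10th percentile (adjusted p = 0.000167). Of 24 ABC transporters measured, 6 were higher, 1 was lower and 17 did not pass, with 12 higher under no further normalization and 4 higher against 3 lower under median scaling. Among the higher ones was the cholesterol exporter Abca1 (1.75 ± 0.32 on the brighter of its probe sets, 0.06 ± 0.27 on the other), and the lower one was Abcd2, a peroxisomal fatty acid importer (-1.76 ± 0.20, 2.10-fold lower in place of 3.39-fold with a floor at the 40th percentile).

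**Figure D1:**
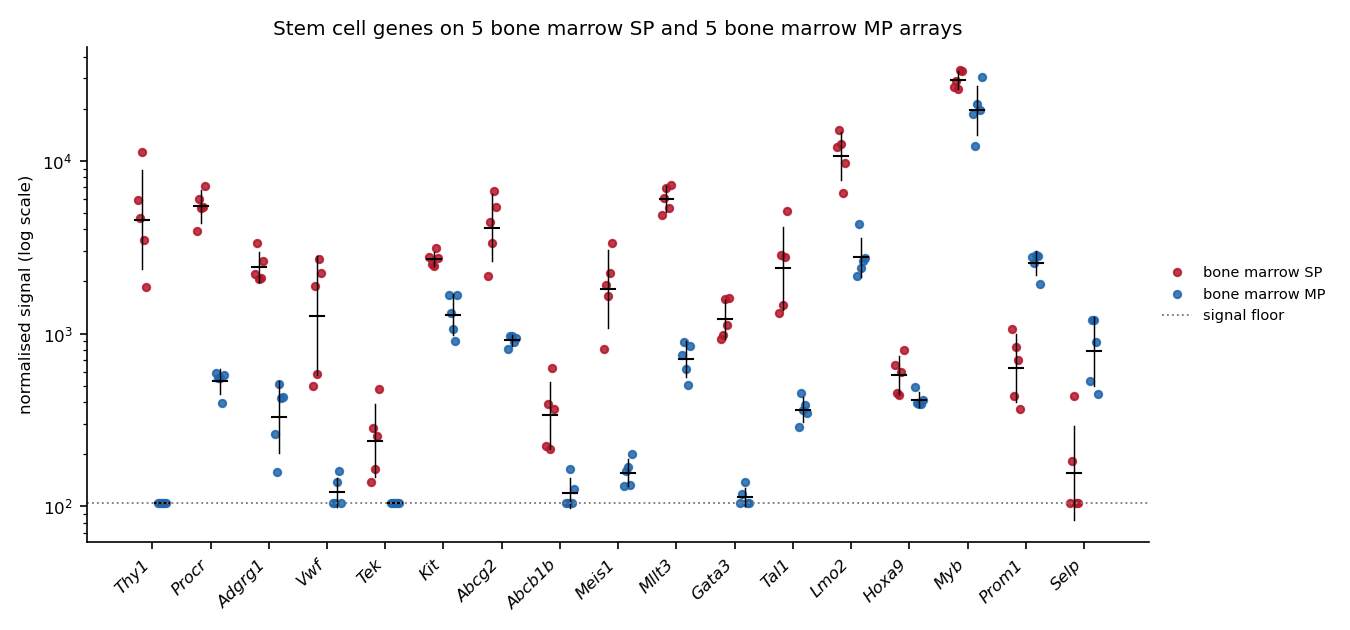
Normalised signal (log axis) of 17 stem cell genes on 5 bone marrow SP arrays (red, left) and 5 bone marrow MP arrays (blue, right); points are arrays, horizontal bars are means of log2 values, vertical bars are 1 SD, and the dotted line is the signal floor. SP and MP values do not overlap for Procr, Meis1, Mllt3, Gata3, Tal1 and Lmo2, whereas those of Hoxa9 and Myb do, and Prom1 and Selp lie lower in SP.

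Of 21 measured surface genes of blood stem cells, 13 were higher in SP, 4 were lower and 4 did not pass, with a median log2 difference of 1.20. Procr, the endothelial protein C receptor and one of the most selective surface markers of mouse blood stem cells, had 3918, 5963, 5354, 5389 and 7159.9 on SP arrays and 594, 553, 549, 394 and 578 on MP arrays. The lowest SP value lay far above the highest MP value (10.3-fold, 3.37 ± 0.24, adjusted p = 8.37e-10). Adgrg1, an adhesion receptor also called GPR56, had 2208, 3327, 2065, 2084 and 2619 on SP and 264, 157, 509, 421 and 429 on MP arrays. Adgrg1 differed by 2.88 ± 0.28 (adjusted p = 9.66e-08). Vwf, von Willebrand factor, which marks platelet-biased stem cells as well as megakaryocytes and endothelium, had 499.9, 1894, 586, 2682 and 2228 on SP arrays, while 3 of the MP arrays lay at the floor and the others had 138 and 160 (3.40 ± 0.44, adjusted p = 4.09e-06). The SP values of Vwf fell apart into a lower pair, arrays 1 and 3, and a higher group of 3. Without the arrays of highest GAPDH ratio, SP 5 and SP 4, the Vwf difference was 2.77, and with a floor at the 40th percentile it was 2.32.

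Thy1 was the surface gene with the largest difference, at 5913, 4637, 11200.2, 3492 and 1849 on SP arrays against the floor on all 5 MP arrays, at least 43.6-fold (adjusted p = 1.15e-10). Thy1 is a glycoprotein of T cells and, at a low level, of mouse blood stem cells. The angiopoietin receptor Tek, which takes part in holding stem cells quiescent, had 139, 284, 164, 257 and 479.7 on SP arrays against the floor on all 5 MP arrays, at least 2.29-fold (adjusted p = 0.0013), and the call was lost with a floor at the 40th percentile. The related receptor Tie1 was also at the floor on every MP array and at least 6.0-fold higher in SP (2.59 ± 0.30, adjusted p = 7.86e-07). F2r, the thrombin receptor, was higher by 2.75 ± 0.33 on the brightest of its 3 probe sets, and the other 2, which were dim, did not pass (-0.29 ± 0.19 and 0.04 ± 0.18). Eng, endoglin, a TGF-beta co-receptor, rose by 1.88 ± 0.22, and Cd34 by 1.85 ± 0.25 on the brighter of its 2 probe sets (0.39 ± 0.32 on the other). With the higher floor the difference was 4.16 for Thy1 and 1.30 for Tie1.

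Kit, the receptor of stem cell factor, differed less than these genes. It had 2779, 2537, 2443, 3109 and 2733 on SP arrays and 1674, 1312, 1066, 902 and 1672 on MP arrays, without overlap but with an MP level that was already high (2.11-fold, 1.07 ± 0.29, adjusted p = 0.0068). The call was lost with the GAPDH ratio as a covariate (0.59, adjusted p = 0.159). Flt3, the cytokine receptor of multipotent and lymphoid progenitors, which long-term stem cells are known to lack, was also higher in SP (3916, 5046, 2471, 3402 and 2738 on SP and 1372, 1325, 2235, 1726 and 1438 on MP arrays, 1.10 ± 0.26, adjusted p = 0.00255). However, a second probe set did not pass (0.56 ± 0.21). Cd48, likewise absent from the most primitive stem cells, did not pass (-0.16 ± 0.30, adjusted p = 0.756). The lower surface genes were Selp (-2.34 ± 0.39), which encodes P-selectin of platelets and endothelium, Prom1 (-2.02 ± 0.31), which encodes prominin 1, Cd9 (-0.93 ± 0.23), a tetraspanin of platelets and other cells, and the adhesion molecule Alcam (-0.63 ± 0.20). Prom1 had 1068, 437, 839.5, 707 and 363 on SP arrays against 2759.5, 2575, 2838, 2792 and 1938 on MP arrays, and a second probe set differed the same way (-2.96 ± 0.29). The Alcam call was lost in 5 of 24 alternatives, among them the fits without SP 1 (-0.47, adjusted p = 0.0578) and without SP 3 (-0.57, adjusted p = 0.0507). The Selp and Cd9 differences became -1.47 with the higher floor and -1.57 with median scaling.

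Of 40 measured transcription factors of blood stem cells, 23 were higher in SP, 1 was lower and 16 did not pass, with a median of 0.99. Meis1, the HOX cofactor, had 808, 1919.9, 1638, 2244 and 3349.9 on SP and 131, 159.5, 168, 133 and 201 on MP arrays (3.53 ± 0.27, and 2.82 with a floor at the 40th percentile). Mllt3, a chromatin reader that maintains stem cell self-renewal, had 4827, 6114, 6911, 5305 and 7272 on SP arrays and 752, 896, 624, 501 and 851 on MP arrays, an 8.48-fold difference with little spread in either group (3.08 ± 0.22, adjusted p = 7.38e-10). Tal1 and Lmo2, which with Gata2 belong to the core complex of stem cell transcription, rose by 2.72 ± 0.28 and 1.95 ± 0.21, and Gata2 itself by 1.60 ± 0.29.

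Tal1 had 1319, 2858, 1455, 2788 and 5086 on SP arrays and 289, 453, 359.6, 384 and 348 on MP arrays. The SP values were widely spread, yet the lowest was still above every MP value. Gata2 had 3163, 3708, 3839, 4792 and 9047 on SP and 1968, 1759.6, 1012, 1545 and 1398 on MP arrays, where array SP 5 stood highest. For both Gata2 and Lmo2 a second, dimmer probe set did not pass (0.32 ± 0.16 and 0.21 ± 0.29). Gata3, a factor of T cells that is also expressed in quiescent blood stem cells, had 934, 979.9, 1579.8, 1113 and 1597 on SP arrays against 105, 118, 138, 105 and 105 on MP arrays (10.6-fold, or 4.74-fold with the higher floor, 3.41 ± 0.21, adjusted p = 8.42e-11). Nr4a2 and Nr4a1, nuclear receptors that restrain stem cell division and are also immediate early genes, rose by 3.14 ± 0.30 and 2.16 ± 0.21. Runx1 rose by 0.91 ± 0.26, a call that was lost without SP 5 and SP 4 (0.81, adjusted p = 0.0508), and Gfi1b, a repressor of stem cell and megakaryocyte genes, by 1.26 ± 0.31.

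HOX genes gave unlike values. Hoxa7 had 260.3, 1029, 617, 1030.1 and 1699.7 on SP arrays, whereas 4 of 5 MP arrays lay at the floor (2.82 ± 0.33, or 1.61 with the higher floor, adjusted p = 9.34e-07). Hoxa9, which drives progenitor expansion, had 661, 455, 441, 599 and 807 on SP and 492, 396, 393, 390.2 and 412 on MP arrays, which overlapped. Hoxa9 differed by 0.48 ± 0.22 (adjusted p = 0.115) and passed with no further normalization (0.91, adjusted p = 0.0068). Hoxb4 was at the floor on 3 SP and all 5 MP arrays, so the array gave no level for it in MP cells. Myb, a factor of cycling progenitors, was among the brightest of these genes in both groups (26538, 29081, 25914, 33679.9 and 32926 on SP and 18522, 12153, 21251, 19734 and 30395 on MP arrays) and did not pass (0.59 ± 0.45, adjusted p = 0.371). The one lower factor was Klf2, a quiescence factor of lymphocytes (-1.31 ± 0.33, adjusted p = 0.00383). Gata3 is also on the T cell list, Nr4a1, Nr4a2, Klf2 and others on the list of immediate early genes, and 5 of the surface genes are on the endothelial list. Of 16 T cell genes, 12 were higher in SP too (described below), and their part in the levels of Thy1 and Gata3 was not tested. Without SP 5 and SP 4, 17 of the 40 factors were called higher.

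Among 24 cell cycle inhibitors and growth arrest genes, 4 were higher in SP, 8 were lower and 12 did not pass, with 2 higher and 10 lower under median scaling and 5 lower with the GAPDH ratio as a covariate. The largest of these differences was that of Cdkn1c, which encodes the CDK inhibitor p57, the inhibitor most closely tied to stem cell quiescence: 2148, 6178, 3977, 8645 and 7142 on SP arrays and 204, 340.5, 504, 569 and 216 on MP arrays. Cdkn1c differed by 3.91 ± 0.36 (15.0-fold, adjusted p = 4.41e-08). Ndn, necdin, a growth suppressor of stem cells, had 337, 867, 724, 1149.7 and 376 on SP arrays against the floor on every MP array, at least 5.91-fold (2.56 ± 0.28, and 1.28 with a floor at the 40th percentile), although a second probe set did not pass (0.15 ± 0.25). Cdkn1a, which encodes p21, rose by 1.19 ± 0.27 and its second probe set by 1.02 ± 0.23. Cdkn1b (p27) did not pass (0.10 ± 0.30, adjusted p = 0.864). On the other side Rb1, the retinoblastoma protein, had 328, 354, 538, 793 and 549 on SP and 1882, 1934, 2268, 2104 and 1803 on MP arrays, 4.10-fold lower (-2.03 ± 0.23, adjusted p = 6.48e-07), with the second probe set at -1.40 ± 0.27. Gadd45a (-1.73 ± 0.24) and Btg2 (-0.97 ± 0.22), growth arrest genes induced by stress, were lower as well. The list median of 0.08 turned negative relative to all genes with no further normalization (-0.24) and likewise with median scaling (-0.32). With median scaling the Cdkn1a call was lost (0.75, adjusted p = 0.0542), while Gadd45a and Btg2 stood at -2.33 and -1.65.

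The D-type cyclins split. Ccnd2 had 8972, 9888, 10501, 7500.4 and 17215 on SP arrays and 1296, 2234, 2312, 1912 and 2656 on MP arrays (2.36 ± 0.27, adjusted p = 6.72e-07). Ccnd3 had 6958, 4406, 6442, 3742 and 4602 on SP and 10121, 14526, 7841, 8759.9 and 13537 on MP arrays (-1.07 ± 0.25, adjusted p = 0.0022). Ccnd1 did not pass (-0.23 ± 0.20). Of 14 G1 cyclins, kinases and E2F genes, 2 were higher and 4 lower, against 4 higher and 3 lower with no further normalization. E2f1, the S-phase activator released by Rb1, was lower (-1.01 ± 0.26), a call that was lost with no further normalization (-0.65, adjusted p = 0.0563). The Ccnd3 difference was -1.71 with median scaling. Of 42 mitosis genes, 13 were higher and 0 lower in SP, with a median of 0.39, against 0.03 for all genes. The higher ones numbered 6 with median scaling and 22 with no further normalization. Kif22, a chromosome motor, rose by 1.33 ± 0.19, and Ttk, the spindle checkpoint kinase, by 1.23 ± 0.22. Stmn1, stathmin, which loosens microtubules, rose by 1.17 ± 0.20 (lost with median scaling, 0.54, adjusted p = 0.0519). The proliferation marker Mki67 had 3984, 6217, 4138, 5348 and 5541 on SP and 2833, 1703, 3084, 2912 and 3436 on MP arrays, without overlap, but did not pass (0.87 ± 0.42, adjusted p = 0.128). In 3 of 24 alternatives it did pass, among them the fit of the marrow arrays alone (0.87, adjusted p = 0.0122). Of 42 DNA replication genes, 7 were higher, 3 lower and 32 did not pass, which is 16.7% higher and 7.14% lower against 16.5% and 14.9% over all genes. The counts were 3 higher and 6 lower under median scaling, and 2 were higher with the GAPDH ratio as a covariate. Pcna, the sliding clamp of DNA polymerase, rose by 0.52 ± 0.14, a difference that was -0.10 with median scaling.

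**Figure D2:**
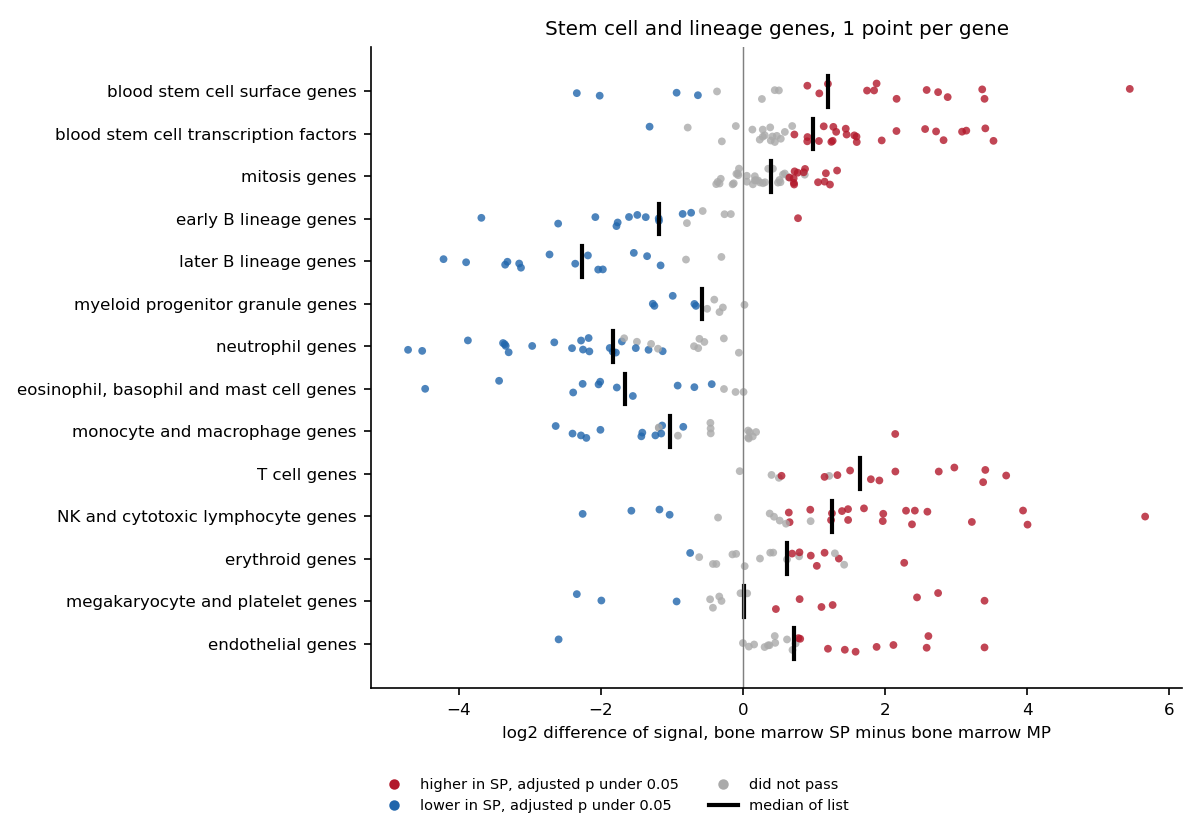
Log2 difference of signal (bone marrow SP minus bone marrow MP) for every measured gene of 14 lists, 1 point per gene; red points are higher and blue points lower in SP with an adjusted p under 0.05, grey points did not pass, and black bars are list medians. B lineage, neutrophil, eosinophil and monocyte genes lie mostly left of 0 and stem cell, T cell and NK genes mostly right of it.

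Most B lineage genes were lower in SP. Of 17 early B lineage genes, 12 were lower, 1 was higher and 4 did not pass (median -1.19). Of 16 later B lineage genes 14 were lower, 0 were higher and 2 did not pass (median -2.27); the difference between these lists was not tested. In bulk samples fewer cells of a type and less RNA per cell cannot be told apart. Ms4a1, the B cell surface protein CD20, had 1148, 1194, 745, 1142 and 757 on SP arrays and 5445, 7239, 10664, 14618 and 7899.8 on MP arrays. Ms4a1 differed by -3.15 ± 0.23 (8.87-fold lower, adjusted p = 1.13e-09). Fcrla, an Fc receptor-like protein of B cells, had 118, 155, 157, 292 and 105 on SP and 2687, 2712, 2598, 2562 and 3989 on MP arrays, so that it was close to the floor in SP and high in MP (-4.21 ± 0.26, or -3.45 with a floor at the 40th percentile). Pax5, the factor that commits cells to the B lineage, had 671, 882, 976, 702 and 221 on SP and 1995, 1885, 2136, 2234 and 2392 on MP arrays. Pax5 differed by -1.78 ± 0.31 (adjusted p = 0.000147).

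Ebf1, the factor upstream of Pax5, lay at the floor on 4 SP arrays and had 308, 164, 299, 376 and 348 on MP arrays (-1.37 ± 0.23), a dim gene whose call was lost with a floor at the 40th percentile (-0.30, adjusted p = 0.239). Il7r, the interleukin 7 receptor that B and T cell progenitors need, had 2327, 1284, 3845, 1513 and 1967 on SP and 3045, 1529, 1952, 1598 and 4244 on MP arrays, which overlapped throughout (-0.17 ± 0.39, adjusted p = 0.806). Sox4, a factor of early lymphoid progenitors and of stem cells, was the one higher gene of the early list (0.78 ± 0.20, adjusted p = 0.0043). That call was lost with the GAPDH ratio as a covariate (0.54, adjusted p = 0.0789), and a second probe set did not share it (0.23 ± 0.21). Rag1, the recombinase, differed by its probe set. The brightest, which stands for Rag1 in the list and can cross-hybridise, did not pass (-0.57 ± 0.38). The dimmer one had 479.6, 197, 459.6, 349 and 106 on SP and 5324, 1836, 5236, 6607 and 7079 on MP arrays (-4.10 ± 0.36). Cd79a and Cd79b, the signalling chains of the B cell receptor, fell by 0.85 ± 0.28 and 2.08 ± 0.29. The Cd79a call was lost in 9 of 24 alternatives, among them the fits without SP 2, SP 4, SP 5, MP 1 or MP 5 (from -0.81 to -0.72, adjusted p up to 0.0729). Of 9 plasma cell genes, 5 were lower and 4 did not pass, with 2 lower under no further normalization. Irf4 was at -2.58 ± 0.47 (-1.89 without SP 5 and SP 4) and the joining chain Jchain at -2.24 ± 0.23. Xbp1 (0.29 ± 0.27) and Prdm1 (0.51 ± 0.25), the factors of the plasma cell programme, did not pass, although Prdm1 did with no further normalization (1.07, adjusted p = 0.00114).

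Stretches of 3 promoters are shown because these early B lineage genes hold, close to their start, the motif AGGAAGT, a form of the site of PU.1 and related ETS factors, which 6 of 13 early B genes with a RefSeq promoter hold. The other holders, of which Vpreb3 and Lef1 are named here after their values were seen, are Vpreb3, a partner of the immature B cell receptor, which fell by 1.60 ± 0.32, and Il7r and Lef1 (-0.79 ± 0.34, adjusted p = 0.0844), which did not pass, although Lef1 did in 3 of 24 alternatives. The motif was looked for on both strands of the 250 bases before each start (assembly GRCm38.p6), where 2377 of 27025 genes (8.80%) hold it, as do 2 of 9 later B genes. It was chosen after its counts had been seen among 8 motifs searched in the same way, the others being the GATA motif AGATAA, the E-box form CAGCTG, the longer ETS motif ACCGGAAGT and the C/EBP motif TTGCNNCAA, besides an EBF motif, a GC-rich motif and a degenerate C/EBP motif. A match describes these letters and is no evidence of binding. Spi1, which encodes PU.1, had 1589, 1072, 913, 1744 and 760.1 on SP and 1524, 1495, 1739, 1923 and 1548 on MP arrays and did not pass (-0.50 ± 0.29, adjusted p = 0.208), except with median scaling (-0.75, adjusted p = 0.0361). Each stretch runs 5′ to 3′ on the strand of its gene with the motif, or its reverse complement for Rag1, in capitals.
Blnk, chr19:40994372-40994468, minus strand: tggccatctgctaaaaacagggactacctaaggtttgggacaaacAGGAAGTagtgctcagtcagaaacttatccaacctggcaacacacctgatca
Cd79a, chr7:24897397-24897493, plus strand: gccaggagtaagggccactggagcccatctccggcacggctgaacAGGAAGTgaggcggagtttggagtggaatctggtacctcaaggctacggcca
Rag1, chr2:101649630-101649726, minus strand: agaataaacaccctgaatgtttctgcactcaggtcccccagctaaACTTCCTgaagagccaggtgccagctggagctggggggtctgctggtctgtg
Blnk, the adaptor that links the B cell receptor to its kinases, was 6.07-fold lower in SP, at 1132, 791, 816, 798 and 315 on SP and 3477, 4195, 4823, 6500.5 and 3302 on MP arrays (-2.60 ± 0.29, adjusted p = 5.02e-07); Cd79a and Rag1 are described above.

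Granulocyte genes were lower in SP, but not all of them to a like degree. Of 31 neutrophil genes, 21 were lower, 0 were higher and 10 did not pass (median -1.83). The log2 difference was negative for all 31, and 27 were called lower in the fit of the marrow arrays alone. Of 10 genes of myeloid progenitors and primary granules, 5 were lower and 5 did not pass (median -0.58), with 8 lower under median scaling and 3 under no further normalization. The difference between these lists was not tested. Cybb, the catalytic subunit of the phagocyte oxidase, had 1481, 264, 509, 200.3 and 105 on SP arrays and 4608, 5971, 3372, 5616 and 5382 on MP arrays (-3.87 ± 0.43, adjusted p = 5.04e-07, and -3.07 without SP 5 and SP 4). Ly6g, the surface marker of mature neutrophils, had 5246, 1859, 3989, 3273 and 875 on SP and 23060.5, 23296, 28431, 39537 and 20592 on MP arrays. Ly6g differed by -3.35 ± 0.43 (10.2-fold lower, adjusted p = 3.29e-06). Mmp8, neutrophil collagenase, had 11946, 3803, 8854, 3942 and 172 on SP arrays, against 28338, 27110.3, 34976, 42162 and 29081 on MP arrays (-3.38 ± 0.69, and -2.34 without SP 5). Array SP 1 was the highest and SP 5 the lowest SP array for each of these 3 genes, and Ly6g was far above the floor on every SP array. The granule protease Prtn3 did not pass, at 2429.5, 3152, 2432, 3815 and 2388 on SP and 2399.8, 3815, 2772, 2214 and 2801 on MP arrays. Prtn3 differed by 0.02 ± 0.29 (adjusted p = 0.985). Elane, neutrophil elastase, fell by 0.99 ± 0.23. Mpo, myeloperoxidase, did not pass on its brighter probe set (-0.40 ± 0.36, adjusted p = 0.456) but was lower on the other (-1.08 ± 0.19). With median scaling the brighter one passed too (-1.13, adjusted p = 0.0169). The calprotectin gene S100a8 was among the brightest on all arrays, with 49389.6, 34976, 51328, 44728 and 17339.6 on SP and 81571, 84533, 84533, 99001 and 75168 on MP arrays, values that do not overlap yet did not pass (-1.20 ± 0.63, adjusted p = 0.167). S100a8 passed in the fit of the marrow arrays alone (adjusted p = 0.0112).

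Of 14 eosinophil, basophil and mast cell genes, 11 were lower, 0 were higher and 3 did not pass (median -1.66), with 7 lower under no further normalization. Prg2, the eosinophil major basic protein, had 1374, 105, 913, 105 and 105 on SP and 9047, 4827, 5892, 3782 and 8008 on MP arrays, so that 3 SP arrays lay at the floor and 2 were well above it. Prg2 differed by -4.47 ± 0.54, or -5.06 without SP 1 and -3.56 without SP 5 and SP 4, and by -0.14 ± 0.24 on a second probe set. Epx, eosinophil peroxidase, showed the same kind of split (105, 105, 375, 286 and 105 on SP and 2488, 1213, 2174, 1342 and 2059.5 on MP arrays). Epx differed by -3.43 ± 0.30, and by -4.22 with a floor at the 10th percentile. Only SP 3 was above the floor for both genes, whereas SP 1 was so for Prg2 alone and SP 4 for Epx alone. Of 24 monocyte and macrophage genes, 11 were lower, 1 was higher and 12 did not pass (median -1.03). The macrophage receptor Adgre1 lay at the floor on 4 SP arrays and had 1025, 793, 676, 545 and 726 on MP arrays (-2.64 ± 0.19, or -1.53 with the higher floor, adjusted p = 1.07e-09). Lyz2, lysozyme, did not pass (-1.18 ± 0.74, adjusted p = 0.253), although its second probe set was lower (-0.90 ± 0.22). The one higher gene was Apoe, a lipid carrier of macrophages that blood stem cells also express, at 2917, 3684, 2554, 4419.5 and 1763 on SP and 413, 388, 843, 1072 and 876 on MP arrays (2.14 ± 0.39, adjusted p = 0.000178, and 2.89 with the GAPDH ratio as a covariate). Its second, dim probe set did not pass (-0.46 ± 0.20). Of 10 MHC class II genes, which B cells and macrophages carry, 6 were lower and 4 did not pass.

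Most T cell and NK cell genes were higher in SP. Of 16 T cell genes, 12 were higher, 0 were lower and 4 did not pass (median 1.65), with 7 higher after a filter at the median, which tests fewer genes. Of 29 NK and cytotoxic lymphocyte genes 19 were higher, 4 were lower and 6 did not pass (median 1.25). Cd3e, a chain of the T cell receptor complex, had 1531, 1290.1, 2991, 787 and 1077 on SP arrays, while 4 of 5 MP arrays lay at the floor. Cd3e differed by 3.71 ± 0.23 (adjusted p = 8.42e-11), and by 5.41-fold with a floor at the 40th percentile. Cd3g, another chain of the complex, had 592, 1544, 4578, 555 and 752 on SP arrays against 105, 105, 105, 105 and 118 on MP arrays, with SP 3 the highest for both chains (3.38 ± 0.37, or 2.13 with that floor). Ifng, interferon gamma, had 5572, 4156, 12171, 11460.5 and 13601 on SP and 115, 365, 212, 141 and 105 on MP arrays. Ifng differed by 5.66 ± 0.37, or 4.95 with that floor. Klrd1, the CD94 chain of NK receptors, had 2613, 3006, 8410.5, 3558 and 4637 on SP and 453, 596, 939.8, 657 and 807 on MP arrays. Klrd1 differed by 2.60 ± 0.40 (adjusted p = 2.91e-05). The chemokine gene Xcl1, made by activated NK and T cells, rose by 3.22 ± 0.26 (2.04 with that floor). Zap70, the kinase of the T cell receptor, rose by 2.76 ± 0.46, while another, dim probe set did not pass (-0.40 ± 0.18). The 4 lower members were Fcer1g (-2.26 ± 0.35), Tyrobp (-1.57 ± 0.57), Il18rap (-1.17 ± 0.32) and Klra2 (-1.03 ± 0.17), of which Fcer1g and Tyrobp are signalling adaptors shared with myeloid cells. The Tyrobp call was lost in 12 of 24 alternatives, including each fit that left out 1 MP array or SP 2, SP 4 or SP 5 (as small as -1.24, adjusted p = 0.117, without SP 5), and the second probe set of Fcer1g did not pass (-0.20 ± 0.17). Klra2 stood at -2.56 with a floor at the 10th percentile.

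**Figure D3:**
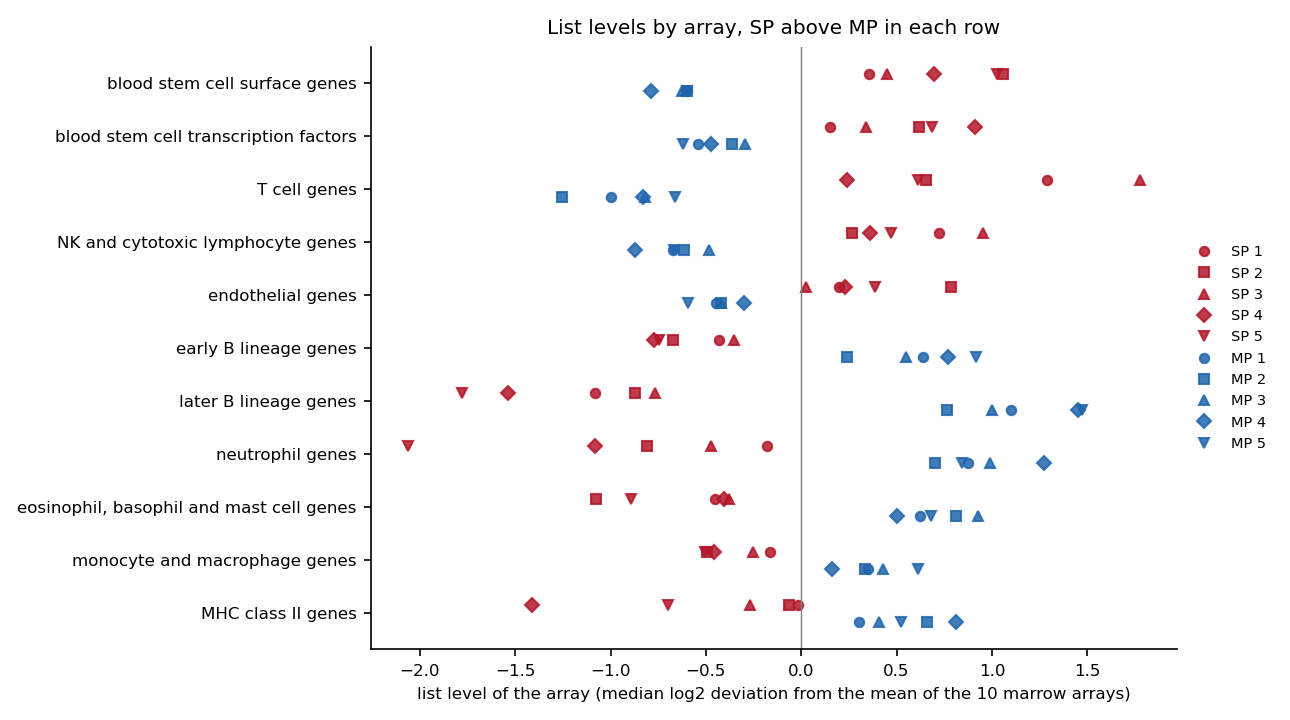
List level of each array, the median over a list's genes of the log2 deviation from the mean of the 10 marrow arrays, for 11 lists; SP arrays are red and lie above the MP arrays (blue) of the same row, and the symbol shape gives the replicate number. The 2 groups do not overlap in any of these 11 lists, which were chosen from 43. In others, such as the glycolysis list and the megakaryocyte and platelet list, they do overlap. SP 5 has the lowest neutrophil level and SP 1 the highest among the SP arrays.

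List levels differed among the SP arrays. The neutrophil list level, a median over genes of the log2 deviation from the mean of all 10 arrays, was -0.18, -0.81, -0.47, -1.08 and -2.06 on SP arrays 1 to 5 and 0.88, 0.70, 0.99, 1.27 and 0.84 on MP arrays 1 to 5. For T cell genes it was 1.29, 0.65, 1.78, 0.24 and 0.61 on SP and -1.0, -1.25, -0.82, -0.83 and -0.66 on MP arrays. For stem cell surface genes it was 0.35, 1.06, 0.45, 0.70 and 1.03 on SP and -0.60, -0.60, -0.63, -0.79 and -0.60 on MP arrays. In each of these lists the MP arrays lay closer together than the SP arrays. However, the stem cell surface level of MP 1, MP 2 and MP 5 was the same value, that of Tek at the floor. The T cell genes Cd3e and Cd3g were also at the floor on most MP arrays. Values at the floor cannot vary, so the MP spread of these 2 lists does not show how alike the MP arrays are. Among SP arrays those with the highest T cell levels (SP 3 and SP 1) had the lowest stem cell surface levels. The part of these levels in the stem cell results was not tested.

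Platelet genes moved in both directions, while most of the erythroid and endothelial genes that were called were higher in SP. Of 21 erythroid genes, 7 were higher, 1 was lower and 13 did not pass (median 0.62), with 4 higher in the fit without SP 2. Car2, a carbonic anhydrase of red cell precursors that is also found in stem cells, had 17463, 19387, 13123, 15570.5 and 12184 on SP and 2770.0, 2545, 2262, 4260.1 and 4749 on MP arrays. Car2 differed by 2.27 ± 0.21 (adjusted p = 4.56e-08). Klf1 (-0.10 ± 0.23) and the brighter Gata1 probe set (-0.15 ± 0.23), the factors of red cell commitment, did not pass, while a second Gata1 probe set was higher (0.73 ± 0.26). Of 16 megakaryocyte and platelet genes, 7 were higher, 3 lower and 6 did not pass. The thrombin receptor F2rl3 rose by 2.45 ± 0.55 and the G protein subunit Gng11 by 1.11 ± 0.26 (lost with a floor at the 40th percentile, 0.52, adjusted p = 0.0539). Coagulation factor F5 (-1.99 ± 0.28) and Selp were lower, and the platelet factor Pf4 was near the floor in both groups and was called lower in 3 of 24 alternatives. Of 22 endothelial genes, 10 were higher, 1 was lower and 11 did not pass (median 0.72), with 6 higher at a floor at the 40th percentile and 16 with no further normalization. Emcn, endomucin, which is found on endothelium and on blood stem cells, had 636, 2300.5, 1635, 1392 and 1014 on SP and 171, 264, 222, 230.5 and 173 on MP arrays (2.61 ± 0.25, adjusted p = 6.53e-08) on the brightest of its 3 probe sets; the other 2 did not pass. The defining junction genes Pecam1 and Cdh5, named here after their values were seen, did not pass (0.08 ± 0.27 and 0.45 ± 0.33), and 4 of the 10 higher endothelial genes (Tek, Tie1, Eng and Vwf) were also on the stem cell surface list. Of 24 marrow stromal and bone genes, 7 were higher, Thy1 among them, 1 was lower and 16 did not pass, with 4 higher and 2 lower at a floor at the 40th percentile.

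Of 34 cytokine and growth factor receptors, through which marrow signals reach blood cells, 6 were higher, 11 were lower and 17 did not pass, with 7 higher and 7 lower without SP 5 and SP 4. Higher was Il6st, the shared gp130 chain of interleukin 6 type receptors (1.52 ± 0.30 on the brighter probe set, -0.18 ± 0.19 on the other). Also higher were the erythropoietin receptor Epor (1.35 ± 0.36, 0.56 with a floor at the 40th percentile) and the interleukin 1 receptor Il1r1 (1.13 ± 0.29, lost with a floor at the 40th percentile, 0.57, adjusted p = 0.104). Lower were Ccr1 (-3.17 ± 0.39, -2.39 without SP 5 and SP 4) and Cxcr2 (-1.87 ± 0.22, -1.25 with the higher floor), chemokine receptors of phagocytes. Also lower were the interleukin 1 decoy receptor Il1r2 (-2.34 ± 0.38, -2.96 with median scaling) and the GM-CSF receptor chain Csf2ra (-2.24 ± 0.23). Csf2ra had 606, 408, 588, 551 and 378 on SP and 2300.5, 1816, 2659, 2369 and 2738 on MP arrays, without overlap. Of 30 adhesion and marrow retention genes, 6 were higher and 10 lower. Among integrin chains, Itgav rose by 2.38 ± 0.26 on its brightest probe set, while the other 2 did not pass. Itgb1 rose by 1.00 ± 0.16 (lost with median scaling, 0.41, adjusted p = 0.168). The leukocyte integrin chains Itgb2 (-2.35 ± 0.28) and Itgam were lower, Itgam being at the floor on all 5 SP arrays and at 548, 366, 505, 766 and 437 on MP arrays, at least 4.85-fold lower (1.99-fold with the higher floor).

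**Figure D4:**
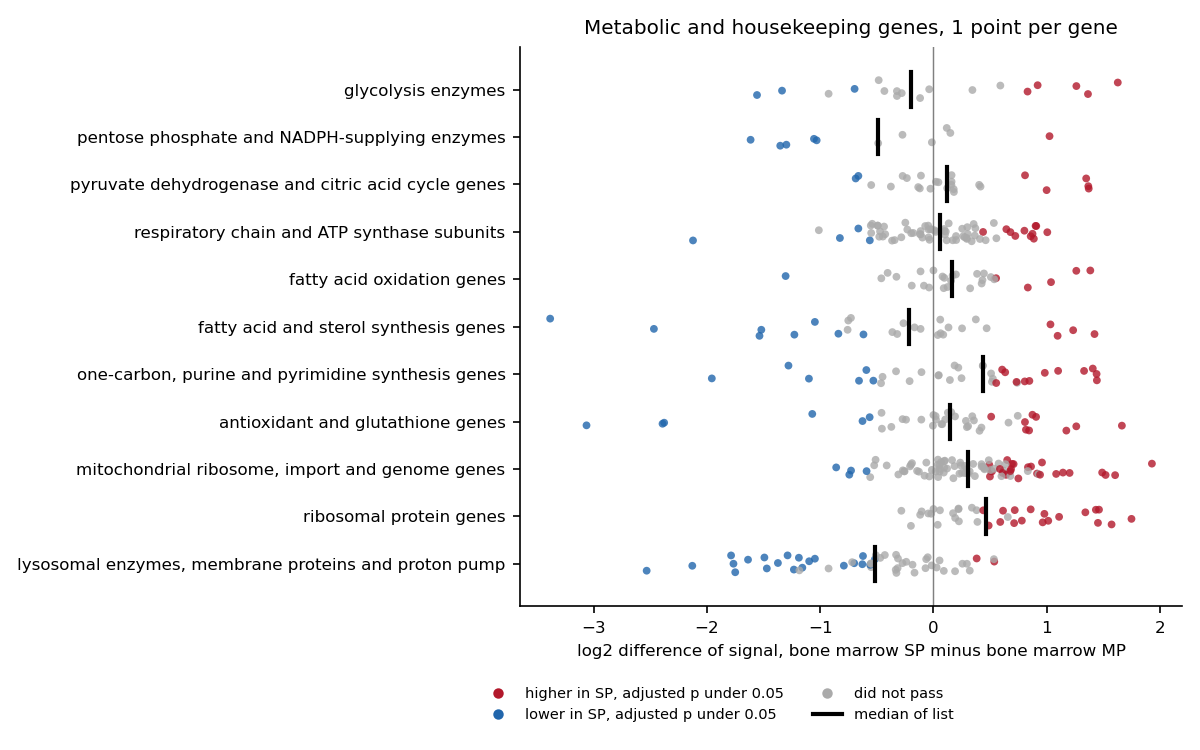
Log2 difference of signal (bone marrow SP minus bone marrow MP) for every measured gene of 11 metabolic and housekeeping lists, 1 point per gene; red points are higher and blue points lower in SP with an adjusted p under 0.05, grey points did not pass, and black bars are list medians. Ribosomal protein genes lie mostly right of 0 and lysosomal genes mostly left of it, and glycolysis genes lie on both sides.

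The metabolic lists held changes in both directions. Of 18 glycolysis enzymes, 5 were higher, 3 lower and 10 did not pass, with a median of -0.20. With median scaling 4 were higher and 7 lower. Hexokinases, which trap glucose in the cell, went opposite ways: Hk1 had 4218, 6989, 7619.7, 9502 and 6628 on SP and 2051, 2592, 3299, 3996 and 2544 on MP arrays (1.26 ± 0.22, adjusted p = 0.000158). Hk2 had 863, 781, 537, 764 and 1176 on SP and 2357, 1437, 1766, 3224 and 1732 on MP arrays. Hk2 differed by -1.34 ± 0.23 (adjusted p = 0.000131). Neither pair of groups overlapped. Of the phosphofructokinases, which commit sugar to glycolysis, the muscle-type Pfkm rose by 1.36 ± 0.24. The platelet-type Pfkp was at 0.83 ± 0.27, a call lost in 6 of 24 alternatives, among them the fits without SP 1, SP 3, MP 1, MP 2 or MP 5 (from 0.71 to 0.79, adjusted p up to 0.0658), and a second probe set did not pass (0.36 ± 0.18). The enolase Eno2 had 482, 709, 697, 594 and 855 on SP arrays against 197, 181, 179, 178 and 379 on MP arrays. Eno2 differed by 1.63 ± 0.23 (adjusted p = 8.85e-06). Pgam1, a lower-glycolysis mutase, was at -0.70 ± 0.19, a call lost with the GAPDH ratio as a covariate (-0.54, adjusted p = 0.0869) and without SP 5 and SP 4, and at -1.40 with median scaling. The bright genes Ldha (-0.32 ± 0.26, adjusted p = 0.403) and Pkm (-0.43 ± 0.30, adjusted p = 0.302) did not pass. With median scaling both were called lower, Ldha at -0.76 (adjusted p = 0.0302) and Pkm at -1.11 (adjusted p = 0.00234), and Ldha also with the GAPDH ratio as a covariate (-0.80, adjusted p = 0.0259).

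The glucose carriers Slc2a1 and Slc2a3 were lower. Slc2a1 (GLUT1) had 162, 147, 208, 105 and 105 on SP and 587, 938, 493, 691 and 316 on MP arrays (4.05-fold lower, or 2.23-fold with a floor at the 40th percentile, -2.02 ± 0.35, adjusted p = 0.000106). Slc2a3 (GLUT3) had 1616, 846, 996, 819 and 499 on SP and 4384, 5016, 4171, 7214 and 4308 on MP arrays (5.52-fold lower, -2.46 ± 0.27), with its second probe set at -1.12 ± 0.28. Of 24 hypoxia-response genes, 2 were higher and 6 lower, with 10 lower under median scaling and 5 higher under no further normalization. Hif1a, the oxygen-regulated factor itself, did not pass (0.13 ± 0.17, adjusted p = 0.612, and -0.48 with median scaling). Pdk1, a target of that factor that closes the entry of pyruvate into the citric acid cycle, had 3292, 6120.0, 5957, 6284 and 6442 on SP and 1906, 2880.3, 2214, 1653 and 2113 on MP arrays (1.37 ± 0.19, adjusted p = 9.46e-06). Pdk4, another kinase of the same complex, rose by 1.35 ± 0.30. The lipid droplet gene Plin2 (-1.64 ± 0.33) and the oxidoreductase Ero1a (-0.93 ± 0.20) were lower.

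**Figure D5:**
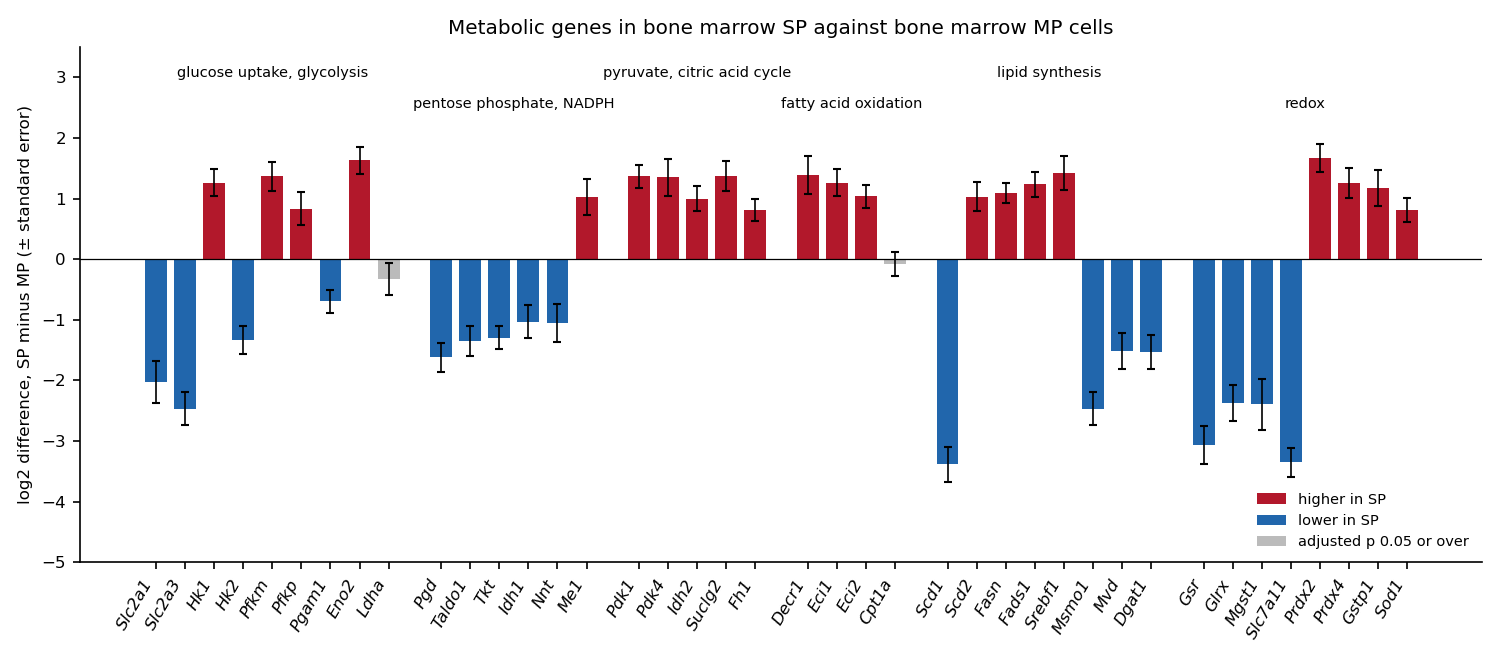
Log2 difference (bone marrow SP minus bone marrow MP, 5 arrays each) with its standard error for 40 metabolic genes in 6 groups, on the brightest probe set of each gene; red bars are higher and blue bars lower in SP with an adjusted p under 0.05, and grey bars did not pass. Hk1 and Hk2, Scd1 and Scd2, and Gsr and Prdx2 stand on opposite sides of 0.

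Of 11 measured enzymes of the pentose phosphate pathway and of NADPH supply, 5 were lower, 1 was higher and 5 did not pass (median -0.49), with 3 lower with the GAPDH ratio as a covariate. NADPH serves synthesis and the repair of oxidised proteins. Pgd, which yields NADPH, had 5529, 4437, 6410.0, 3091 and 2446 on SP and 13379.5, 12747, 9735, 14318 and 13465 on MP arrays. Pgd differed by -1.61 ± 0.24 (adjusted p = 2.07e-05). Tkt, transketolase, had 4089.6, 3701, 3184, 3362 and 4042 on SP and 9696, 6309, 9401, 10773 and 9526 on MP arrays (-1.30 ± 0.19, adjusted p = 1.88e-05), and Taldo1, transaldolase, fell by 1.35 ± 0.24. In each of these 3 enzymes every SP value lay below every MP value. The cytosolic Idh1 (-1.03 ± 0.27) and the mitochondrial transhydrogenase Nnt (-1.05 ± 0.31) were lower too, calls that were lost with the GAPDH ratio as a covariate (-0.79 and -0.91, adjusted p = 0.0784 and 0.0789). The malic enzyme Me1 was at the floor on all MP arrays and at least 2.04-fold higher in SP, a call lost with a floor at the 40th percentile (0.18, adjusted p = 0.615) and without SP 5 and SP 4 (0.74, adjusted p = 0.0889). A second Pgd probe set, which can cross-hybridise, did not pass (0.19 ± 0.37), and with median scaling Pgd and Taldo1 stood at -2.24 and -2.03.

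Of 70 respiratory chain and ATP synthase subunits, 11 were higher, 4 lower and 55 did not pass, with a median of 0.06 that was negative relative to all genes with no further normalization (-0.16) and likewise with median scaling (-0.23, with 1 subunit higher and 15 lower). The largest difference was that of Cox6a2, a heart and muscle type subunit, at 499.9, 385, 365, 364 and 129.8 on SP and 1351, 1565, 1511, 1229 and 1327 on MP arrays (-2.12 ± 0.34). Of 25 genes of pyruvate dehydrogenase and the citric acid cycle, 5 were higher and 2 lower. With median scaling 4 were higher and 6 lower, and with the GAPDH ratio as a covariate 5 were higher and 0 lower. Idh2, which makes NADPH in mitochondria, rose by 1.00 ± 0.20, the GTP-forming succinyl-CoA ligase Suclg2 by 1.37 ± 0.25 and fumarase Fh1 by 0.81 ± 0.18 (lost with median scaling, 0.34, adjusted p = 0.285). Of 28 fatty acid oxidation genes, 5 were higher and 1 lower (median 0.16), with 11 higher under no further normalization, and 3 higher and 4 lower under median scaling. Of the higher ones, 3 are auxiliary enzymes that handle unsaturated chains: Decr1 had 305, 999.9, 534, 701 and 768 on SP and 181, 296, 291, 168 and 274 on MP arrays (1.39 ± 0.31, adjusted p = 0.00172), Eci1 rose by 1.26 ± 0.22 and Eci2 by 1.04 ± 0.19. Cpt1a, the gate of fatty acid entry into mitochondria, did not pass (-0.08 ± 0.20, adjusted p = 0.813) except with median scaling (-0.61, adjusted p = 0.0342). The main-fit shares higher in SP were 15.7% for the respiratory chain, 20% for the pyruvate and citric acid cycle list and 17.9% for fatty acid oxidation. These are near the 16.5% over all genes. The shares lower in SP were 5.71%, 8% and 3.57% in the same order, against 14.9% over all genes.

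Genes of lipid synthesis moved in both directions, 4 of 28 higher and 8 lower (median -0.22). The counts were 3 higher and 14 lower under median scaling and 5 higher and 4 lower under no further normalization. Scd1, which puts the first double bond into fatty acids, had 1021, 461, 528, 397 and 268 on SP and 4716, 3168, 4981, 6657 and 6628 on MP arrays for its brightest probe set (10.4-fold lower, -3.38 ± 0.29, adjusted p = 1.41e-08). A second probe set gave 302, 105, 155, 105 and 105 on SP and 4657, 3004, 2912, 4858 and 7020.5 on MP arrays (-4.92 ± 0.41, or -4.01 with a floor at the 40th percentile), and another, dim one did not pass (0.41 ± 0.23). Its paralogue Scd2 had 15898, 12234, 8631, 18914 and 22880.0 on SP and 7679, 6564, 7691, 8435 and 6186 on MP arrays and was higher (1.03 ± 0.24, adjusted p = 0.00206), a call lost with median scaling (0.40, adjusted p = 0.313). Fasn, the fatty acid synthase (1.10 ± 0.16), the desaturase Fads1 (1.23 ± 0.21) and their regulator Srebf1 (1.42 ± 0.28) were higher as well. Sterol synthesis enzymes were among the lower ones: Msmo1 had 370.5, 547, 793, 550.2 and 709.8 on SP and 2790.4, 3737, 2680.2, 3280.5 and 3558 on MP arrays (5.53-fold lower, -2.47 ± 0.27), and Mvd fell by 1.52 ± 0.30 (-0.70 with the higher floor). Dgat1, which makes triglycerides, fell by 1.54 ± 0.28 (-2.20 with median scaling).

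Redox genes moved in both directions. Of 40 antioxidant and glutathione genes, 9 were higher, 6 lower and 25 did not pass. These are 22.5% higher and 15% lower, near the 16.5% and 14.9% over all genes. With median scaling 6 were higher and 9 lower, and with the GAPDH ratio as a covariate 5 were higher and 6 lower. Gsr, glutathione reductase, had 4138, 2581, 5002, 1932 and 2051 on SP and 30248, 36849, 17176, 15593 and 28961 on MP arrays. Gsr differed by -3.06 ± 0.31 (8.36-fold lower, adjusted p = 1.38e-07). Glrx, glutaredoxin, fell by 2.38 ± 0.30 and the microsomal transferase Mgst1 by 2.39 ± 0.42. Slc7a11, the cystine importer that feeds glutathione synthesis, had 129.8, 193, 154, 224 and 163 on SP and 1251, 1762, 928, 2814 and 2735 on MP arrays (10.2-fold lower, or 6.71-fold with a pseudocount in place of the floor, -3.35 ± 0.24, adjusted p = 9.75e-10). Prdx2, a peroxiredoxin abundant in red cells, had 14682, 21040.1, 17463, 16837 and 9388 on SP and 4030.5, 3654, 5577, 5701 and 5696 on MP arrays (1.66 ± 0.23, adjusted p = 1.03e-05) on its brightest probe set (1.03 with median scaling), and 0.76 ± 0.17 on another. Prdx4 (1.26 ± 0.24), the transferase Gstp1 (1.17 ± 0.29) and the superoxide dismutase Sod1 (0.82 ± 0.20) were higher, and Sod2 (-0.46 ± 0.24) and catalase Cat (0.13 ± 0.25) did not pass. Sod2 passed in 3 of 24 alternatives, at -0.96 with median scaling (adjusted p = 0.00711). The Sod1 call was lost with median scaling (0.29, adjusted p = 0.338) and with the GAPDH ratio as a covariate (0.53, adjusted p = 0.0746).

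Of 35 genes of one-carbon, purine and pyrimidine synthesis, 12 were higher and 6 lower (median 0.44), with 6 higher and 7 lower under median scaling. Gart, a trifunctional enzyme of purine synthesis, had 4181, 6461, 4429, 7352 and 6138 on SP and 2076, 2307, 2127, 1430.2 and 2493 on MP arrays. Gart differed by 1.44 ± 0.20 (adjusted p = 6.83e-06). Cad, which starts pyrimidine synthesis, rose by 1.44 ± 0.32, the nucleoside diphosphate kinase Nme2 by 1.41 ± 0.19 (0.78 with median scaling) and ornithine decarboxylase Odc1, which starts polyamine synthesis, by 1.33 ± 0.21. The lower genes included the salvage enzymes Dck (-1.96 ± 0.21) and Aprt (-0.66 ± 0.18, lost with no further normalization, -0.29, adjusted p = 0.251) and the ribonucleotide reductase subunit Rrm2 (-1.10 ± 0.36). The Rrm2 call was lost in 6 of 24 alternatives, among them the fits without SP 1, SP 2, MP 2 or MP 4 (from -0.77 to -1.01, adjusted p up to 0.0775). Dck, deoxycytidine kinase, had 1679, 1640.5, 1571, 1640.5 and 2735 on SP and 6636, 8410.5, 7754, 6964 and 5679.9 on MP arrays. Slc1a4, a carrier of serine, alanine and cysteine, had 1653, 2526, 1682, 1712 and 2746 on SP arrays and 118, 111, 105, 105 and 113 on MP arrays, all at or just above the floor (4.19 ± 0.21, or 2.98 with a floor at the 40th percentile). Of 25 transporters of amino acids, glucose and lactate, 4 were higher and 7 lower, with 10 higher and 4 lower under no further normalization.

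Of 36 ribosomal protein genes, 18 were higher, 0 were lower and 18 did not pass (median 0.46), with 11 higher under median scaling and 25 under no further normalization. The median relative to all genes was at least 0.40 in every alternative. Rpsa had 16642, 19248, 14682, 15700.1 and 11592 on SP and 3266, 4312, 5838, 6138 and 3956 on MP arrays (1.75 ± 0.26, adjusted p = 1.74e-05, and 1.12 with median scaling), and Rpl13a rose by 1.57 ± 0.26. These genes have many near-identical processed copies, which probe sets may not separate. Of 89 genes of the mitochondrial ribosome, import and genome, 24 were higher and 4 lower (median 0.31), with 12 higher and 9 lower under median scaling and 42 higher and 0 lower under no further normalization. Hspa9, the mitochondrial HSP70 that pulls proteins in, had 24573, 24573, 22132, 29276 and 35194 on SP and 9436, 8645, 8794, 6584 and 11218 on MP arrays (1.60 ± 0.19, adjusted p = 1.04e-06), the protease subunit Clpp rose by 1.49 ± 0.28 and Polg2, the accessory subunit of the mitochondrial DNA polymerase, by 1.52 ± 0.21.

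Of 53 lysosomal genes, 21 were lower, 2 were higher and 30 did not pass (median -0.52), with 31 lower under median scaling. Atp6ap1, an accessory subunit of the proton pump that acidifies lysosomes, had 1306, 1306, 1279.5, 2338 and 3876 on SP and 11893, 15341, 9069.6, 10546 and 7345 on MP arrays. Atp6ap1 differed by -2.53 ± 0.33 (5.79-fold lower, adjusted p = 4.1e-06). The membrane proteins Lamp2 and Cd63 fell by 1.75 ± 0.20 and 2.13 ± 0.32, and the sialidase Neu1 by 1.77 ± 0.31 (-2.39 with the GAPDH ratio as a covariate). Lamp2 had 4508, 4712, 5100.0, 6366 and 5305 on SP and 21960.0, 12214, 19489, 16246 and 18569.6 on MP arrays (-2.38 with median scaling), and its second probe set differed by -1.59 ± 0.18. Granulocytes and macrophages are rich in lysosomes, and 21 of 31 neutrophil and 11 of 24 macrophage genes were lower in the same comparison. Their part in the lysosomal counts was not tested.

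The SP and MP arrays of skeletal muscle, in the same fit, give the difference between these populations in another tissue. The marrow difference departed from the muscle difference (limma contrast of the 2 differences, adjusted p under 0.05) for 1912 probe sets (18.5%), of which 1016 lay higher and 896 lower in marrow. Of the 3113 probe sets called in marrow, 1430 (45.9%) also departed from muscle. The largest departures upward were Thy1, Slc1a4, F2rl3, F2r and Itm2a, and downward Lrg1, Selp, Prg2, Bmx and Hdc. Itm2a, a membrane protein of lymphocytes and other cells, differed by 2.91 ± 0.25 in marrow and -1.33 ± 0.25 in muscle. Hdc, the histamine-forming enzyme of basophils and mast cells, differed by -2.03 ± 0.21 in marrow, where SP had 5588, 3403, 5037, 4338 and 2591 and MP 15570.5, 16273, 16538, 16664 and 17651, and by 2.36 ± 0.21 in muscle. Bmx, a kinase of neutrophils and endothelium, differed by -3.40 ± 0.26 in marrow and 1.06 ± 0.26 in muscle. Lrg1, a glycoprotein of neutrophils, differed by -3.02 ± 0.50 in marrow (-2.15 without SP 5 and SP 4, -2.19 with the GAPDH ratio as a covariate) and by 2.28 ± 0.50 in muscle, and Hdc by -2.66 in marrow with median scaling. Abcg2 differed by 0.85 ± 0.25 in muscle, less than in marrow (difference 1.31 ± 0.35, adjusted p = 0.0104), and Procr and Mllt3 by 0.57 ± 0.24 and 0.40 ± 0.22 (differences 2.80 ± 0.34 and 2.68 ± 0.31, adjusted p = 5.37e-06 and 2.38e-06).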

How the data were processed

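Expression was measured on Affymetrix MG-U74Av2 arrays, of which the 10 from bone marrow were compared here. The signal intensity values were deposited by the authors as a table with 1 linear value per probe set and array; each array's 2% trimmed mean is 1501, while the sources used here do not give the software or the background correction. After 66 control probe sets were left out, all 20 arrays were quantile normalised, values were floored at the 25th percentile (104.8) and taken to log2, and probe sets above the floor on at least 5 of 20 arrays were kept. A limma model with 4 groups (R 4.3.3, limma 3.58.1) gave moderated tests, Benjamini-Hochberg adjusted over 10310 probe sets with a threshold of 0.05, and was tested on simulated data. Genes were named from the platform annotation, in which 10833 probe sets have 1 symbol, 396 several and 1193 none; 10817 were matched to RefSeq. The brightest probe set stood for each gene in the lists. Members and lists were chosen with earlier results of these data known. Genes named are those with the largest changes, the largest changes in each list and a preset set of stem cell, lineage and metabolic genes, except where said. Ly6a, Slamf1 and Itga2b were not analysed here. Alternatives covered scaling, floor, filter, model options, the GAPDH ratio, the replicate block and each array left out. Figures were drawn with matplotlib 3.10.9 (Python 3.11.15).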

Additional observations from a re-analysis of the deposited data

Results flagged for a closer look

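An array was marked where its gap to the nearest array of its group was more than 0.71 of the group's range, which chance does for about 1 in 20 groups of 5. Of 373 such groups among the named genes and the 3 list levels, 29 were marked, 19 of them on MP and 10 on SP arrays. Array SP 5 was the most frequent, with 6 genes: it was lowest for Blnk (315 signal units), Cox6a2 (129.8), Gstp1 (1972), Mmp8 (172) and Pax5 (221), and highest for Dck (2735). SP 1 was lowest for Pdk1 (3292), Irs2 (283) and Itgb1 (22813), and SP 4 lowest for Cpt1a (3252). MP 1 was highest for Hoxa9 (492). MP 2 was lowest for Ebf1 (164), highest for Elane (2499.8), highest for Glrx (62477), lowest for Mki67 (1703) and lowest for Tkt (6309). MP 3 was highest for Cd48 (5389), lowest for Gadd45a (21492) and lowest for Il18rap (1661). MP 4 was highest for Pla2g7 (3787), highest for Prkag1 (2129), lowest for Procr (394), highest for Taldo1 (16477) and lowest for the level of the stem cell surface list (-0.79). For that list MP 1, MP 2 and MP 5 shared the level of Tek at the floor (-0.60). Values at the floor have no order, so the mark on this list cannot show that MP 4 is outlying. MP 5 was lowest for Cd63 (5133), highest for Eno2 (379), highest for Fcrla (3989), lowest for Prom1 (1938) and lowest for Zfp36 (6848).

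The SP minus MP difference was unlike in marrow and muscle for 1912 probe sets and for 130 of the 198 genes named. The marrow difference minus the muscle difference (limma, log2) was 5.65 ± 0.48 for Thy1, 4.65 ± 0.29 for Slc1a4, 4.26 ± 0.78 for F2rl3, 4.26 ± 0.46 for F2r and 4.24 ± 0.35 for Itm2a. It was -5.30 ± 0.71 for Lrg1, -4.92 ± 0.55 for Selp, -4.47 ± 0.77 for Prg2, -4.45 ± 0.37 for Bmx and -4.39 ± 0.29 for Hdc. For the sort-related and stem cell genes Abcg2, Procr and Mllt3 it was 1.31, 2.80 and 2.68.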

How the results depend on the processing

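Of the 170 genes named that were called, 144 kept their direction and their call in each of the 24 alternatives that kept their probe set. Some named genes were not tested in every alternative because its filter left out their probe set. Of the 170, 26 lost the call in at least 1 alternative, and Pcna turned to -0.10 with median scaling. Of the 28 named and not called, 13 passed in at least 1 alternative. The counts of calls kept within 1.5 times of the 3113 (1583 higher, 1530 lower) except that 2894 were higher with no further normalization. List medians relative to all genes moved as follows. With no further normalization they were -0.24 for cell cycle inhibitors, -0.16 for the respiratory chain, -0.41 for lipid synthesis, -0.81 for pentose phosphate and NADPH enzymes and 0.56 for ribosomal proteins, and with median scaling -0.32, -0.23, -0.49 and -0.90 for the first 4 and -0.76 for lysosomal genes. With the GAPDH ratio as a covariate they were -0.19 for cell cycle inhibitors, 0.49 for mitosis, -1.96 for eosinophil, basophil and mast cell, -0.040 for glycolysis, -0.41 for lipid synthesis and 0.54 for ribosomal protein genes. Without SP 5 and SP 4 they were -0.12 for cell cycle inhibitors, -0.80 for monocyte and macrophage, -0.037 for glycolysis, -0.76 for NADPH, 0.19 for nucleotide and -0.40 for lysosomal genes. With a filter at the median, which tests fewer genes, they were 1.19 for stem cell factors, -0.15 for cell cycle inhibitors, -2.07 for eosinophil, 2.22 for T cell, -0.81 for NADPH and 0.56 for ribosomal genes. With no filter they were -0.68 for eosinophil, -0.84 for monocyte and -0.078 for glycolysis genes, and over the mean of a gene's probe sets -1.13, -0.72 and, for nucleotide genes, 0.23. A floor at the 10th percentile gave -1.18 and a pseudocount -1.38 for eosinophil genes. A floor at the 40th percentile gave 1.00 for NK, 0.31 for endothelial, -0.78 for NADPH and 0.56 for ribosomal genes, and array weights gave 0.27 for fatty acid oxidation. Leaving out each array in turn gave between 1348 and 1660 probe sets higher in SP and medians from -0.19 to 0.10 for cell cycle inhibitors, -0.35 to -0.18 for lipid synthesis, -1.09 to -0.87 for monocyte, 0.22 to 0.41 for nucleotide and -0.66 to -0.35 for NADPH genes. The cause of these shifts was not tested. With the replicate number as a block, 1567 probe sets were higher and 1504 lower. Deviations of same-numbered SP and MP arrays from their group means had correlations of 0.21, -0.14, 0.04, 0.05 and -0.04 for numbers 1 to 5. The value for number 1 was the highest of any pair of arrays. Such correlations cannot show whether same-numbered samples came from the same mice or sorts, which the labels do not give. The number of arrays and the signal floor limit what dim genes can show.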

Other observations

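Immediate early and heat shock genes, which respond within minutes to handling, growth factors or stress, were higher in SP for 17 of 40 and lower for 10, with 6 higher and 13 lower under median scaling. Egr2, a zinc finger factor, had 2102, 2047, 2603, 1996 and 4739 on SP and 643, 1113, 1475, 890.0 and 606 on MP arrays (1.51 ± 0.27, adjusted p = 0.000203). Hspa1b, the inducible HSP70, had 7500.4, 24135, 26601, 21040.1 and 16538 on SP and 3584, 9566, 9952, 5340.5 and 2257 on MP arrays (1.73 ± 0.35, adjusted p = 0.000661). The lower members included Zfp36, which destabilises cytokine messages (-1.54 ± 0.22), and Cebpb, a factor of emergency granulopoiesis (-1.25 ± 0.25). Sort time and temperature are not given in the labels, and their part was not tested. Of 34 interferon-stimulated genes, 6 were higher and 6 lower (3 lower in the fit of the marrow arrays alone). These are 17.6% each way, near the 16.5% higher and 14.9% lower over all genes. The guanylate-binding proteins Gbp2 (1.36 ± 0.36, 4.09-fold in place of 2.58-fold with the GAPDH ratio as a covariate) and Gbp3 (1.24 ± 0.19), targets of interferon gamma, rose. Usp18, which removes the ISG15 tag and restrains type I interferon signalling, had 516, 518, 1289.5, 376 and 240.1 on SP and 1192, 1528, 2300.5, 1448 and 908 on MP arrays and fell (-1.49 ± 0.36, adjusted p = 0.00263).

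Of 27 insulin, mTOR, FoxO and AMPK signalling genes, 5 were higher and 4 lower, against 3 higher and 5 lower under median scaling and 9 higher and 2 lower under no further normalization. In the main fit these are 18.5% higher and 14.8% lower, near the 16.5% and 14.9% over all genes. Irs2, an adaptor of the insulin receptor, had 283, 778, 650.1, 898 and 806 on SP and 105, 105, 178, 285 and 269 on MP arrays (1.89 ± 0.44, adjusted p = 0.00197, and 2.41-fold in place of 3.70-fold with a floor at the 40th percentile), and Sesn1, a stress-induced inhibitor of mTOR complex 1, rose by 1.15 ± 0.26. Akt2 fell by 1.34 ± 0.35 and the AMPK subunit Prkag1 by 1.25 ± 0.26. Of 17 lipid mediator genes, 2 were higher and 6 lower, among them Alox15, the lipoxygenase of eosinophils and macrophages (-2.39 ± 0.38), and the prostaglandin E receptor Ptger2 (-2.12 ± 0.21). Pla2g7, which inactivates platelet-activating factor, had 177, 210.5, 258, 135 and 105 on SP and 2295, 2424, 2099, 3787 and 2173 on MP arrays (-3.89 ± 0.25, adjusted p = 1.31e-10, and 9.43-fold in place of 14.8-fold with a pseudocount in place of the floor). Of 17 heme and iron genes, 2 were higher and 3 lower, with 5 higher under no further normalization and 5 lower under median scaling. The main-fit shares of 11.8% and 17.6% are near the 16.5% and 14.9% over all genes. Alas1, the housekeeping form of the first heme enzyme, fell by 1.19 ± 0.25, and Alad, the next enzyme, rose by 1.00 ± 0.25. Of 49 translation initiation and elongation factors, 18 were higher and 3 lower (7 and 7 under median scaling), and the poly(A)-binding proteins Pabpc4 and Pabpc1 rose by 1.73 ± 0.27 and 1.18 ± 0.21. Of 44 proteasome subunits, 11 were higher, and 2 were lower, against 0 higher and 8 lower under median scaling.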
